A study of Mus musculus with 16 samples.

Results

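The 11 drug-resistant derivatives of 5 mouse lines of T-ALL, T-cell acute lymphoblastic leukaemia, were set against the parental cultures of their own lines. All 11 libraries labelled as resistant were taken, together with the 5 parental libraries, which makes up all 16 libraries of the series. Per the labels, 3 derivatives were resistant to cytarabine (lines 2883, 2869 and 7298), 2 to etoposide (2883 and 2696), 1 to methotrexate (2883), 2 to prednisone (2883 and 2641) and 3 to vincristine (2883, 2696 and 2869). The parental cultures of the 5 lines were labelled as given PBS. Lines 2883, 2696, 2641 and 2869 were Mcm2cre/cre, a genotype in which the replication helicase gene Mcm2 is hypomorphic, and line 7298 was SCL/LMO1 transgenic. All cultures, resistant and parental, were labelled as thymus, were grown in DMEM with 10% serum and carry the same batch label. Every culture is 1 library of RNA from a whole population, so a derivative is 1 selection and a parental value is 1 culture. The sources used here do not give the drug dose, the time under drug, whether drug was present at harvest, clonality or the promoter of the transgene. P-values measure only the spread between these libraries.

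T-ALL is a cancer of immature T cells. The 5 drugs act in different ways. Cytarabine is a nucleoside analogue that Dck phosphorylates, methotrexate is an antifolate, etoposide traps topoisomerase II on DNA, vincristine blocks tubulin assembly, and prednisone acts through the glucocorticoid receptor Nr3c1. The comparison asks which transcripts differed in the same direction whatever the drug and the line.

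The labels were checked against marker genes. All 12 T cell markers were in the table, with a summed level of 3200 to 5137 CPM (counts of reads scaled to the library total) in the resistant and 3425 to 4614 CPM in the parental libraries. Of the defining markers of other cell types, 6 of 7 B cell, 6 of 8 myeloid, 6 of 7 erythroid and 7 of 9 stromal or epithelial genes had no row. The genes of these lists that had a row summed to 0.0053 to 13.2 (B cell), 3.85 to 25.3 (myeloid), 0.703 to 14.6 (erythroid) and 28.5 to 591 CPM (stromal or epithelial) in resistant libraries. In parental libraries they summed to 0.0075 to 2.53, 7.24 to 34.3, 1.46 to 5.87 and 49.4 to 446 CPM in the same order, and their part in the results was not tested. Mcm2 was at 446 CPM in the resistant and 320 CPM in the parental library of line 7298, and at 54.0 to 187 CPM in the resistant and 76.3 to 114 CPM in the parental libraries of the Mcm2cre/cre lines. Lmo1 was at 222 CPM in the resistant and 270.1 CPM in the parental library of line 7298, and had no read elsewhere. Implied read depth was 14066000 to 18956000 in the resistant and 12142000 to 13498000 in the parental libraries, without overlap. The depth of resistant libraries was 4110530 reads higher on average within lines, higher in 11 of 11 (two-sided exact permutation test within lines, p = 0.00463, the smallest that 216 arrangements can give, and 0.0185 adjusted over 4 library measures). Depth and resistance therefore cannot be told apart by this design. The same permutation test gave p = 0.944 for the share of mitochondrial reads (2.31% to 5.53% in resistant and 3.10% to 3.86% in parental libraries), p = 0.667 for the share of the 10 highest genes and p = 0.222 for the number of genes at 1 CPM or more. The share of the 10 highest genes was 10.5% in the methotrexate-resistant library. It was 4.28% to 6.25% in the other resistant and 4.70% to 5.23% in the parental libraries. Its part in the CPM ratios of the methotrexate-resistant library was not tested.

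A single term for resistance was fitted to all 12843 genes with a mean of at least 1 CPM, on log2(CPM + 1), with 1 term per line. No gene passed an adjusted p of 0.05 in this limma fit, a background of 0%. The smallest adjusted p was 0.494 (Gm38057, a predicted gene). At an unadjusted p under 0.05 there were 1086 genes (8.46% of those tested), of which 445 were higher (3.46%) and 641 lower (4.99%) in resistant cultures. The same fit under 30 alternatives also called 0 genes, with smallest adjusted p between 0.0728 and 0.968. Without the parental library of line 2696 the 1086 became 600, and without that of line 2869 they became 633. All directions below are therefore descriptions of genes that did not pass the test. The lines did not weigh alike in this fit: line 2883, with 5 derivatives, carried 26.3% of the estimate, lines 2696 and 2869 carried 21.1% each, and lines 2641 and 7298 carried 15.8% each.

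The genes with the smallest p and a line mean of the same sign in all 5 lines were led, among lower genes, by the translation factor subunit Eif3m, the interleukin 5 receptor chain Il5ra and the ubiquitin ligase receptor Crbn. Il5ra and Crbn are neighbours on chromosome 6. Among higher genes they were led by Ccdc92, by Cpt1a, which controls the entry of fatty acids into mitochondria, and by Tmem184b. In these bulk cultures fewer cells of a type and less RNA per cell cannot be told apart. For each of the 24 genes named in this way the adjusted p was 0.498 in limma.

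Eif3m, a subunit of the initiation factor that brings messenger RNA to the ribosome (chromosome 2, start 104999656), had a lowest, median and highest level of 117, 132.5 and 178 CPM in the resistant libraries. Its parental levels were 193 CPM in line 2883, 173 in 2696, 195 in 2869, 242 in 2641 and 165 in 7298. It was lower in 11 of 11 derivatives, and 10 of them lay below every parental library. The shared log2 fold change was -0.48 ± 0.09 (SE, unadjusted p = 0.000179). It was -0.10 when log2 depth was added to the fit. Here and below, values with depth in the fit show dependence on that choice. They are not corrected effects, since depth did not overlap between the groups, and their standard errors are not given. Eif3m overlaps Ccdc73, which had a shared log2 fold change of -0.31, and the sources used here do not give the strand used in counting.

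Il5ra encodes the ligand-binding chain of the interleukin 5 receptor, best known from eosinophils and B-1 cells. It was a low transcript, with a lowest, median and highest level of 0.0058, 3.12 and 6.00 CPM in resistant libraries, where the lowest value stands for 0 reads in the vincristine-resistant derivative of line 2869. The parental cultures held 18.2 CPM in line 2883, 13.4 in 2696, 8.01 in 2869, 9.04 in 2641 and 5.72 in 7298. It was lower in 11 of 11 derivatives, the groups overlapped by 1 resistant library, and the shared log2 fold change was -1.74 ± 0.35 (SE, unadjusted p = 0.00022). It was -2.87 with log2 depth in the fit.

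Crbn encodes cereblon, the substrate receptor of a cullin ligase and the protein that thalidomide-type drugs bind. Its lowest, median and highest level was 33.0, 52.2 and 62.3 CPM in resistant libraries. In parental cultures it was at 75.7 CPM in line 2883, 88.1 in 2696, 70.4 in 2869, 69.3 in 2641 and 59.4 in 7298. Crbn was lower in 11 of 11 derivatives, 8 of which lay below every parental library, with a shared log2 fold change of -0.57 ± 0.12 (SE, unadjusted p = 0.00025). Of the 11 genes listed as cereblon and cullin ligase parts, 2 were lower and 0 higher at an unadjusted p under 0.05. Of all genes tested, 4.99% were lower and 3.46% higher at that p. The 2 were Crbn itself, named for its small p, and the NEDD8-activating subunit Uba3 at -0.25 (-0.38 with log2 depth in the fit).

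The promoters of Il5ra (chr6:106748988-106749287, minus strand) and Crbn (chr6:106800038-106800337, minus strand) are shown because these neighbouring genes were both lower in all 11 derivatives. Each runs from 250 bases before the start of the gene to 50 bases after it, from RefSeq on GRCm38.p6, the assembly of the files' mm10 build, and no letter is marked. GC content was 44.3% in the Il5ra window and 60% in the Crbn window, which held 1 GC box (GGGCGG on either strand), found in 65.5% of the 9209 promoters of genes tested and in 35.9% of all 27025. The Il5ra window held 1 amino acid response element (TGATGNAA on either strand, 1.98% and 4.06% of the same promoters) and 1 CCAAT box (CCAAT on either strand, 39.7% and 37.9%).
Il5ra: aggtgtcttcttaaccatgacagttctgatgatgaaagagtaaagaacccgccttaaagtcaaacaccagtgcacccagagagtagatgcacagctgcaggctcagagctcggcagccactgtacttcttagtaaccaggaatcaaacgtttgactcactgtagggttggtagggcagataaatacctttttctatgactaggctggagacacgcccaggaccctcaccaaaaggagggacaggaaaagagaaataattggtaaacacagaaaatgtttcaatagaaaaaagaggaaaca
Crbn: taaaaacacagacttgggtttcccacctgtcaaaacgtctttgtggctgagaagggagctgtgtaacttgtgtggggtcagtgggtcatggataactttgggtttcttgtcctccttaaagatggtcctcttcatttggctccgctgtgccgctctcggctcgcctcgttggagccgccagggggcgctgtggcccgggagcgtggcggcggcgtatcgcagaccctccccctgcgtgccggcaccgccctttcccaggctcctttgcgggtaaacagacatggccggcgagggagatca

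Trnt1, which adds the CCA end to transfer RNAs, lies between Il5ra (106710357 to 106749038) and Crbn (106780201 to 106800078) and overlaps Crbn on the opposite strand. Trnt1 was lower in 10 of 11 derivatives, with a shared log2 fold change of -0.38 (unadjusted p = 0.00952, and -0.61 with log2 depth in the fit) and a log2 ratio of 0.10 in the derivative of line 7298. The next genes tested on that side of Crbn, Setmar and Sumf1, start at 108065045 and 108107028 and had shared log2 fold changes of -0.05 and 0.02. The lower values thus covered 3 adjacent genes and not the next 2, while reads of Trnt1 and Crbn could not be told apart where they overlap.

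Of the other lower genes, Rbis, a ribosome biogenesis factor, was lower in 11 of 11 derivatives at -0.63 ± 0.13 (log2, SE), as were the zinc finger gene Zfp119a at -0.61 ± 0.14, the Mediator subunit Med21 at -0.45 ± 0.10 and the lysophosphatidic acid receptor Lpar6 at -0.89 ± 0.22. Zfp119a was at 4.37 to 7.01 CPM in resistant and 7.43 to 10.1 CPM in parental libraries, so that its groups did not overlap. Gnb4, a G protein beta subunit, was lower in 11 of 11 at -1.72 ± 0.36, by much in line 7298 (log2 ratio -2.77) and little in the etoposide-resistant derivative of 2883 (-0.14). Cytip, a cytohesin-binding protein of lymphocytes, was at -1.20 ± 0.26, and it lay at 0.0058 to 0.297 CPM in the 5 derivatives of line 2883 against 2.73 CPM in their parental culture. H2-K1, a classical MHC class I gene, was at -1.98 ± 0.45 and lower in 10 of 11 derivatives. In line 2883 it was low throughout, at 0.0071 to 1.31 CPM in the derivatives against 1.57 CPM in their parental culture. In line 2869 it was at 102 and 55.1 CPM against 93.9 CPM. In lines 2696, 2641 and 7298 it was at 0.111 to 2.72 CPM in the derivatives and 9.68 to 23.7 CPM in the parental cultures. Reads of H2-K1 may be shared with its close relatives in the MHC. The kinase Clk1, which phosphorylates splicing factors, was at -0.74, and the galactosyltransferase Ggta1 was at -0.53. With log2 depth in the fit, Rbis was at -0.26, Lpar6 at -0.45, Gnb4 at -0.74, H2-K1 at -1.07, Clk1 at -1.21 and Ggta1 at -0.33.

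Cpt1a (chromosome 19) had a lowest, median and highest level of 117, 188 and 409 CPM in resistant libraries, where the 5 derivatives of line 2883 held the 5 highest values. Parental levels were 138 CPM in line 2883, 114 in 2696, 94.8 in 2869, 106 in 2641 and 64.1 in 7298. It was higher in 11 of 11 derivatives, of which 9 lay above every parental library, with a shared log2 fold change of 0.72 ± 0.17 (SE, unadjusted p = 0.000742). Adding log2 depth to the fit gave 0.95.

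Igf2r, the receptor that carries lysosomal enzymes and IGF2, had a lowest, median and highest level of 98.4, 146 and 189.9 CPM in resistant libraries. Parental values were 93.1 CPM in line 2883, 116 in 2696, 78.0 in 2869, 108 in 2641 and 83.8 in 7298. It was higher in 11 of 11 derivatives at a shared log2 fold change of 0.62 ± 0.15 (SE), and 9 derivatives lay above every parental library. Brd1, a scaffold of histone acetyltransferase complexes, was at 131.5, 162 and 197 CPM (lowest, median and highest) in resistant libraries. Levels in the parental cultures were 140.1 CPM in line 2883, 118 in 2696, 103 in 2869, 125 in 2641 and 133 in 7298. Brd1 was higher in 11 of 11 derivatives by a small amount, 0.37 ± 0.09 on the log2 scale.

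Of the other higher genes, Ccdc92 was at 1.03 ± 0.24 (log2, SE) and higher in 10 of 11 derivatives, with no difference in the methotrexate-resistant one (log2 ratio -0.01). The endosomal sorting phosphatase Ptpn23 was at 0.52 ± 0.13, the ER to Golgi protein Ergic1 at 0.59 ± 0.15, and Gpaa1, a subunit of the complex that attaches GPI anchors, at 0.55 ± 0.13. Ergic1 was at -0.15 once log2 depth was in the fit, the only one of the 24 whose sign turned under any alternative. The Wnt adaptor Dvl2 was at 0.63 ± 0.16, the nuclear import receptor Ipo4 at 0.51 ± 0.12, the RNA-binding nuclease Snd1 at 0.49 ± 0.12, Tmem184b at 0.64 ± 0.15 and Tmem131l at 0.47 ± 0.12. With log2 depth in the fit, Ccdc92 was at 0.50, Ptpn23 at 0.27, Snd1 at 0.29, Tmem184b at 0.17, Ipo4 at 0.16 and Tmem131l at 0.10. Adding depth moved 15 of the 24 values by over 1.5 times.

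**Figure D1:**
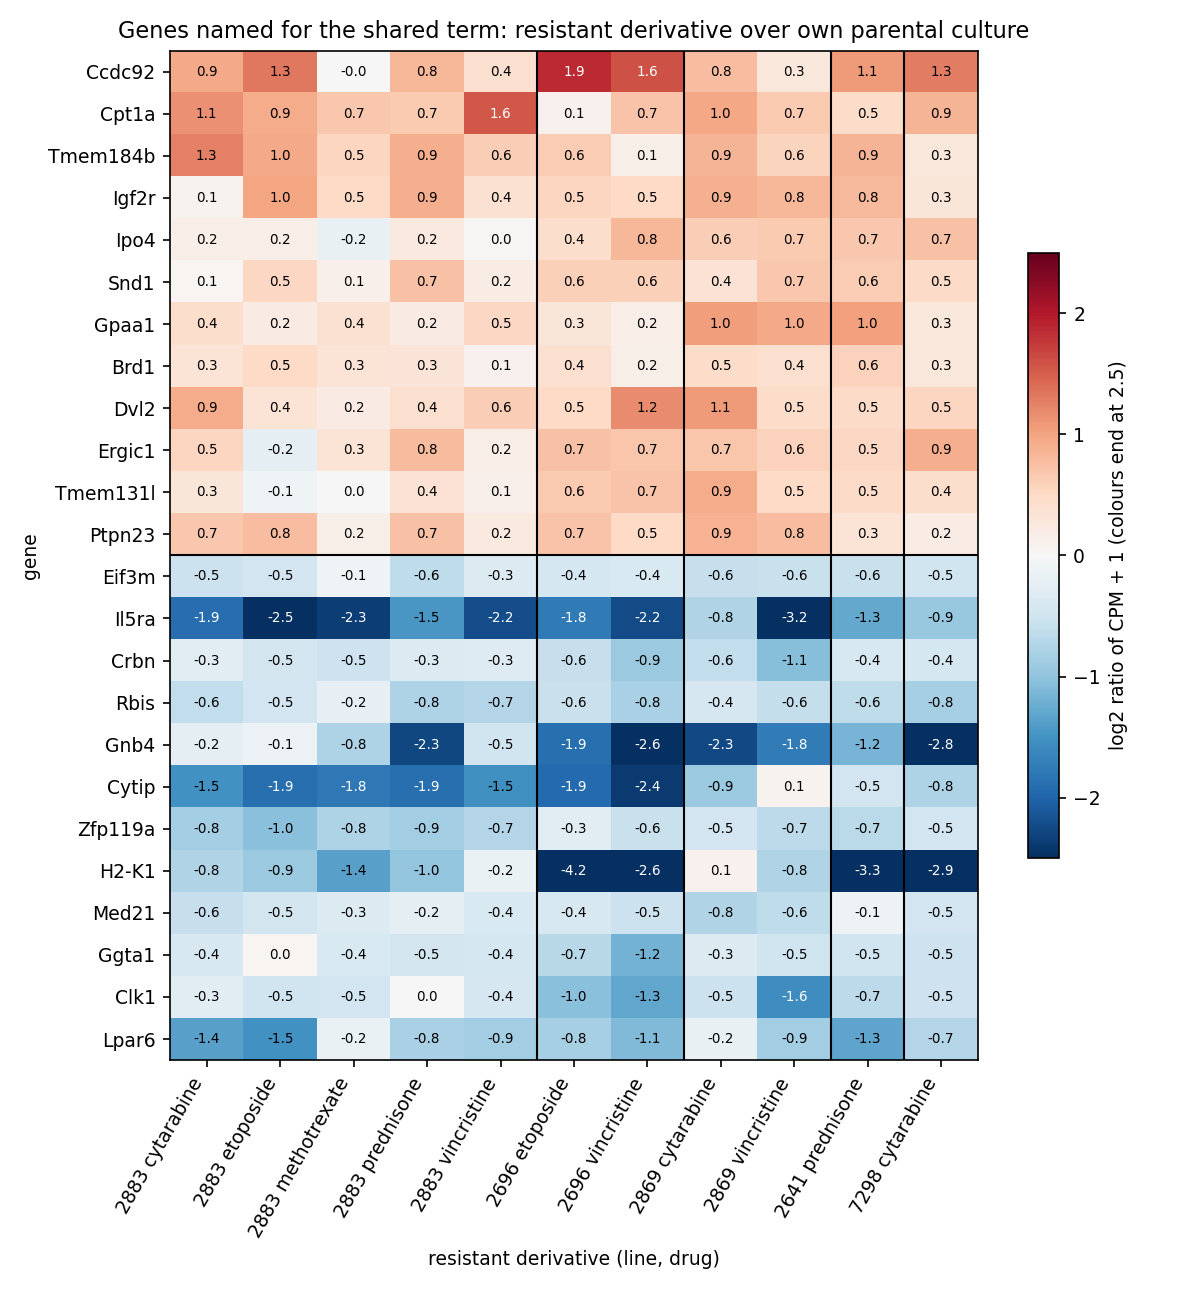
Heat map of the log2 ratio of CPM + 1 in each resistant derivative over the parental culture of its own line (columns, grouped by line) for the 12 higher and 12 lower genes named for the shared term (rows). Colours end at 2.5. Il5ra is lower in every column, from -0.76 to -3.16, while Cytip, H2-K1, Ggta1 and Clk1 each have 1 column at or above 0, and the sign of Ergic1 turned with depth in the fit.

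**Figure D2:**
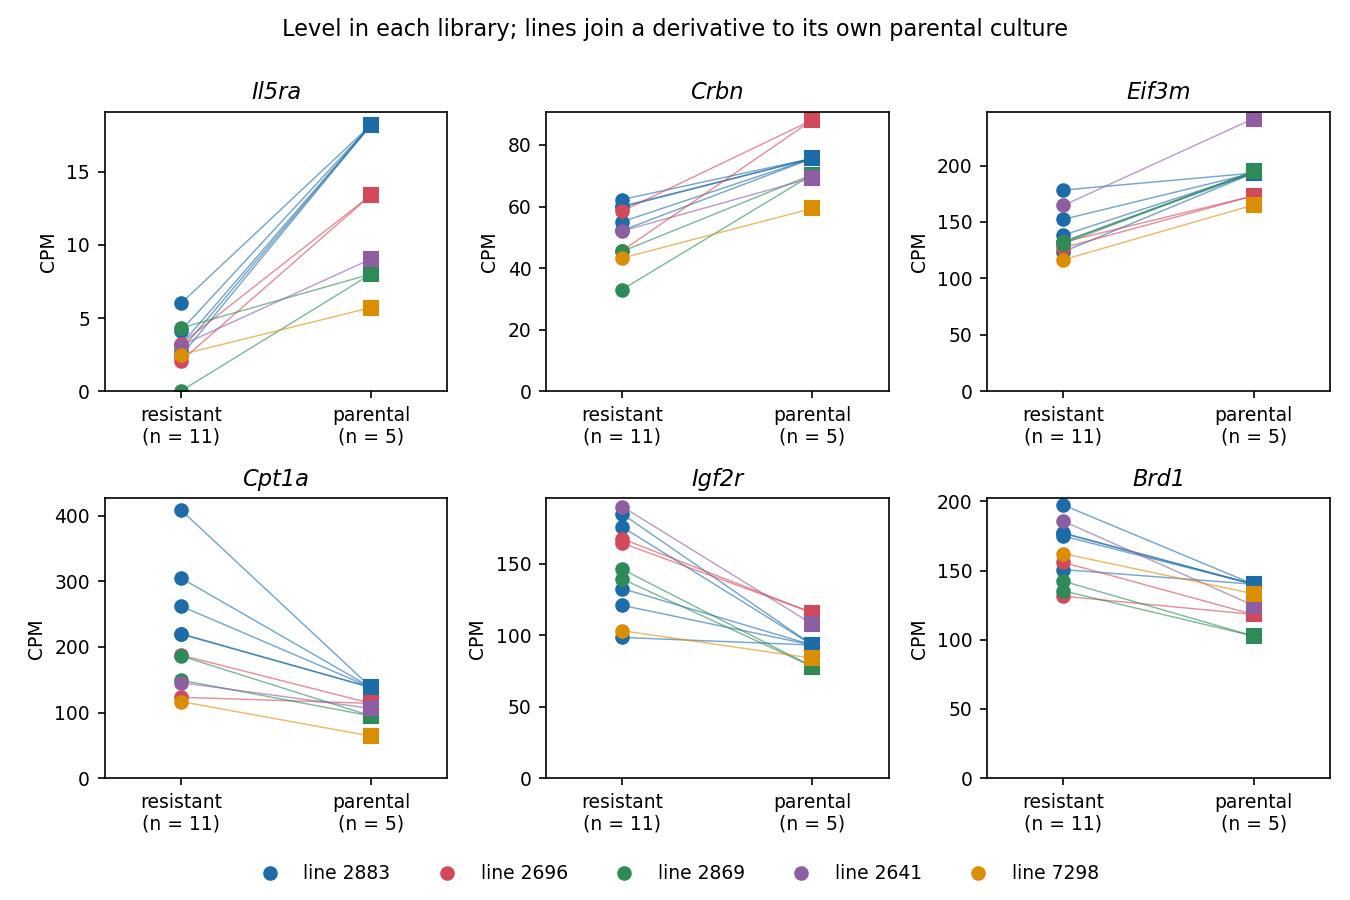
CPM of 6 genes in the 11 resistant libraries (circles, left) and the 5 parental libraries (squares, right), with lines from each derivative to its own parental culture and colours for cell lines. Every line for Il5ra, Crbn and Eif3m runs lower at the resistant end, and every line for Cpt1a, Igf2r and Brd1 runs higher there.

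Derivatives of 1 line share their parental library, so the signs of 5 derivatives of line 2883 are not independent. Over all genes, 90 were higher in 11 of 11 derivatives (0.701%) and 214 were lower in 11 of 11 (1.67%). By line means, which share no library, 825 genes were higher in 5 of 5 lines (6.42%) and 1219 were lower in 5 of 5 (9.49%). Every derivative lay below every parental library for 13 genes (0.101%) and above every one for 2 (0.0156%). Among these, named after their values were seen, were the splicing factor Srsf5 (242 to 388 CPM in resistant, 407 to 450 in parental libraries), the signalosome subunit Cops2 (128 to 171 CPM in resistant, 173 to 237 in parental), the mitochondrial RNA-binding gene Slirp (19.2 to 30.3 CPM in resistant, 30.8 to 38.1 in parental) and, on the higher side, the TAK1 adaptor Tab3 (42.8 to 62.3 CPM in resistant, 28.8 to 41.8 in parental).

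Lists of genes of 1 pathway were described by their counts and medians beside those of all genes, whose median shared log2 fold change was -0.01, with 6178 positive and 6665 negative. None of the listed genes passed the adjusted threshold. Most genes of the ribosomal protein, respiratory chain and proteasome lists had negative values. Of the 78 cytosolic ribosomal protein genes, 76 had a negative value, with a median of -0.27, but the median was 0.37 once log2 depth was in the fit. At an unadjusted p under 0.05, 23 of them were lower and 0 higher, against 4.99% of all genes lower. The line mean of the list was negative in 5 of 5 lines, and the median per derivative ran between -0.55 in the vincristine-resistant derivative of line 2696 and 0.13 in the methotrexate-resistant one. Rpl7, a protein of the large subunit, was at 518, 770 and 1075 CPM (lowest, median and highest) in resistant libraries and 958, 1116, 1132, 1352 and 1408 CPM (in ascending order) in the parental ones, with a shared log2 fold change of -0.45 ± 0.14 (SE, unadjusted p = 0.00694), which was 0.15 with log2 depth in the fit. Ribosomal protein genes have many pseudogene copies, and the sources used here do not give how reads with several matches were counted.

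Of the 70 nuclear genes of the respiratory chain, 62 had a negative value with a median of -0.18, which was 0.11 with log2 depth in the fit. At an unadjusted p under 0.05, 13 were lower and 0 higher, against 4.99% of all genes lower. Cox7b, a subunit of cytochrome c oxidase, was lower in 11 of 11 derivatives, at 109 to 169 CPM in resistant and 163 to 219 CPM in parental libraries (shared log2 fold change -0.46 ± 0.11, SE, unadjusted p = 0.00121, and -0.12 with log2 depth in the fit). The 13 mitochondrially encoded genes had a median of 0.00 (0.18 with log2 depth in the fit), with 6 positive and 7 negative and none at an unadjusted p under 0.05. Of the 36 genes of the proteasome list, which holds the regulator Nfe2l1, 27 had a negative value (median -0.15, and 0.13 with log2 depth in the fit). There the lid subunit Psmd6 was at -0.37, whereas Nfe2l1, the transcription factor that drives proteasome genes, was at 0.44.

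The median of the shared term was slightly lower for the shortest than for the longest transcripts. Protein-coding genes were divided into 5 equal classes by their longest annotated transcript, known for 10935 of 11075 (98.7%). The median shared log2 fold change was -0.05 in the shortest class (204 to 2063 bases), 0.00, 0.01 and 0.02 in the next, and 0.04 in the longest (from 5312 bases). The shortest class held 139 genes lower and 52 higher at an unadjusted p under 0.05, and it held 67 of the 78 ribosomal, 58 of the respiratory and 23 of the proteasome genes. Without those 3 lists its other 2039 genes had a median of -0.04. Processed pseudogenes, which are also short, were negative in 552 of 835. The part of transcript length and of depth in the lower values of these lists was not tested.

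Endoplasmic reticulum stress, Wnt pathway and chromatin lists had positive medians. Of 22 endoplasmic reticulum stress genes, 19 had a positive value (median 0.20, and 0.06 with log2 depth in the fit), among them Syvn1, the ligase of ER-associated degradation, at 0.44 ± 0.12 (SE, unadjusted p = 0.00270) and higher in 11 of 11 derivatives. Syvn1 was at 0.23 with depth in the fit. Of 17 Wnt pathway genes, 12 were positive with a median of 0.11, which was -0.31 with log2 depth in the fit. Besides Dvl2, the scaffold Axin1 was at 0.37 and Dvl3 at 0.59, and these were -0.05 and 0.03 with depth in the fit. Of 31 chromatin modifiers, 21 were positive with a median of 0.12, which was -0.35 with log2 depth in the fit. Of 30 mitosis genes, 23 had a negative value (median -0.14), with the spindle protein Nusap1 at -0.54. With log2 depth in the fit the mitosis median was -0.71, with 30 of 30 genes negative, and Nusap1 was at -0.89. Cholesterol synthesis genes had a median of 0.19, which was 0.02 with log2 depth in the fit, but by derivative it ran between -0.62 and 1.08, with 4 derivatives negative and 7 positive.

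Single genes of other lists also stood at an unadjusted p under 0.05. Fosb, an immediate early factor of the AP-1 family, was at 2.48 ± 0.71 (log2, SE) and higher in 10 of 11 derivatives, as was Dusp1, a phosphatase of MAP kinases, at 0.88. Of 21 immediate early genes tested, 9 had a positive and 12 a negative value, with a median of -0.02. At an unadjusted p under 0.05, 5 were higher and 1 lower, against 3.46% and 4.99% of all genes. Grn, the lysosomal protein progranulin, was at 1.13 ± 0.36 and higher in 10 of 11. The death receptor Fas was at -1.29 ± 0.40 and lower in 10 of 11. Hprt, the purine salvage enzyme, was lower in 11 of 11 by a small amount, -0.26 ± 0.08. The T cell receptor kinase Zap70 was higher in 11 of 11 at 0.40 ± 0.16. With log2 depth in the fit, Fosb was at 4.79, Dusp1 at 0.05, Grn at 2.02 and Hprt at -0.09.

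**Figure D3:**
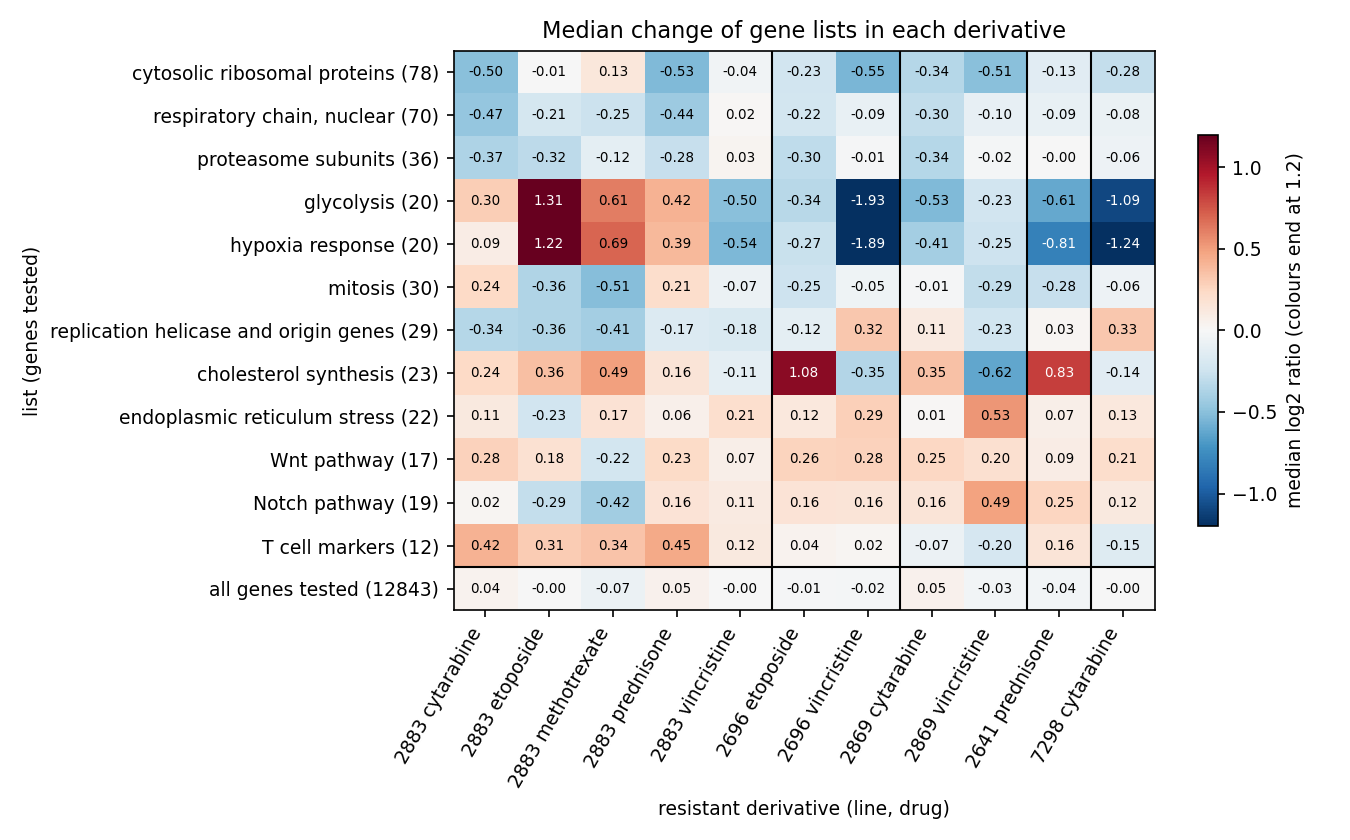
Heat map of the median log2 ratio of CPM + 1 over the genes of each list (rows, with the number of genes tested) in each resistant derivative (columns, grouped by line), with all 12843 genes in the bottom row. Ribosomal protein medians are negative in 10 of 11 columns, although that list's shared median turned positive with depth in the fit, as did those of the respiratory chain and proteasome lists, while those of the Wnt, Notch and T cell marker lists turned negative. Glycolysis and hypoxia medians are negative in the 6 derivatives of lines other than 2883 and positive in 4 of the 5 of line 2883.

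Glycolysis and hypoxia response genes had a negative median in every derivative of 4 lines and a positive one in 4 of the 5 derivatives of line 2883. Of 20 glycolysis genes tested, 18 had a negative shared value (median -0.46), and 3 were lower at an unadjusted p under 0.05. Of 20 hypoxia response genes, 18 were negative (median -0.59) and 4 were lower at that p. Of all genes tested, 4.99% were lower at that p. The medians with log2 depth in the fit were -0.27 for glycolysis (14 of 20 negative) and -0.13 for hypoxia response genes (12 of 20 negative). Pgk1, a kinase of glycolysis, was at 134, 340 and 710 CPM (lowest, median and highest) in resistant libraries. Its parental levels were 397 CPM in line 2883, 852 in 2696, 686 in 2869, 843 in 2641 and 864 in 7298. Every derivative of the last 4 lines lay below its own parental culture and below all 4 of these values, while the groups as a whole overlapped through line 2883. The shared log2 fold change was -1.11 ± 0.41 for Pgk1, -0.72 for the lactate dehydrogenase Ldha, -1.54 for the mTORC1 inhibitor Ddit4 and -1.60 ± 0.59 for Ankrd37, a hypoxia-induced ankyrin gene. Ldha was at -0.40 and Ankrd37 at -0.87 with log2 depth in the fit. Ankrd37 was at 1.36, 5.97 and 36.5 CPM (lowest, median and highest) in resistant libraries, against 13.9 CPM in the parental culture of line 2883, 40.3 in 2696, 14.5 in 2869, 37.6 in 2641 and 21.8 in 7298.

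The change in line 2883 had a median of 0.44 for glycolysis and 0.26 for hypoxia response genes, against -0.85 and -0.90 in the other 4 lines. The difference between line 2883 and the other lines was tested gene by gene, and none of these genes passed an adjusted p of 0.05. At an unadjusted p under 0.05 it was higher in line 2883 for 2 of 20 glycolysis and 5 of 20 hypoxia response genes, against 2.1% of all genes, with 1.62% of all genes lower. For Pgk1 the difference was 1.59 ± 0.86 (log2, SE, unadjusted p = 0.0888). In line 2883 the median was negative for both lists in the vincristine-resistant derivative and positive in the other 4. The sources used here do not give cell density or oxygen at harvest.

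The promoters of Pgk1 (chrX:106186850-106187149, plus strand) and Ankrd37 (chr8:45999801-46000100, minus strand) are shown because these genes had the smallest p of their lists. The Ankrd37 window is placed on a RefSeq start that lies inside the gene as counted (45996902 to 46005708). The sequences are from RefSeq on GRCm38.p6, and capitals mark the core of the hypoxia response element, ACGTG, searched on both strands. ACGTG is also part of the E-box CACGTG.
Pgk1: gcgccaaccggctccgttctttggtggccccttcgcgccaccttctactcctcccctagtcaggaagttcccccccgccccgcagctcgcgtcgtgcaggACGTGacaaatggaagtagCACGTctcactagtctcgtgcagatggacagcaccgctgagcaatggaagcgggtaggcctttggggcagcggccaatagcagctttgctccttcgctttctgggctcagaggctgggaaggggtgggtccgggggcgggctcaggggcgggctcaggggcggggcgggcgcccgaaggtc
Ankrd37: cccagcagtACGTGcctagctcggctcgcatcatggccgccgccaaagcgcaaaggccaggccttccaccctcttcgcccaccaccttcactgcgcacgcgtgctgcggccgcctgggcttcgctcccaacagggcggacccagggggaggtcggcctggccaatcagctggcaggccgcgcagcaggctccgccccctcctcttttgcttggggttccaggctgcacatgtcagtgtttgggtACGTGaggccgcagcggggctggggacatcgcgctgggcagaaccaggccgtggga

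Each window held 2 matches. The core was found in 10 of 19 glycolysis promoters (52.6%) and 11 of 17 hypoxia response promoters (64.7%), in 26.6% of the 9209 promoters of genes tested and in 19.7% of all 27025. These shares describe the letters of the windows and not binding.

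Notch1, the receptor most often activated in T-ALL, showed the opposite pattern between the same lines. Its lowest, median and highest level was 689.8, 1230.1 and 1641 CPM in resistant libraries. The parental cultures held 1305 CPM in line 2883, 412 in 2696, 322 in 2869, 679 in 2641 and 569 in 7298. Notch1 was higher in 6 of 6 derivatives of lines other than 2883 (log2 ratios 0.69 to 2.02) and at -0.82 to 0.02 in the 5 derivatives of 2883, whose parental culture had the highest parental level. The shared log2 fold change was 0.95 ± 0.28 (SE, unadjusted p = 0.00526, and 0.32 with log2 depth in the fit), and the difference of line 2883 from the others was -1.68 ± 0.47 (SE, unadjusted p = 0.00386, adjusted p = 0.984 in limma). Of 19 Notch pathway genes tested, 15 had a positive value (median 0.17), with Notch3 at 0.54. The median and Notch3 were both at -0.27 with log2 depth in the fit.

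Over all genes, 3 passed the test of line 2883 against the other lines (0.0234%). They were Bex1, Myl9 and Pmel, which were present in the parental culture of line 2883 and below 1 CPM in its derivatives. Bex1, an X-linked adaptor gene, was at 0.0058 to 0.217 CPM in the derivatives of 2883 against 42.6 CPM in their parental culture. The difference in log2 change was -5.05 ± 0.51 (SE, adjusted p = 0.00231 in limma). In line 2641 Bex1 was at 131 CPM in the resistant and 89.9 CPM in the parental library, and in the other 3 lines its parental level was 0.0076 to 1.27 CPM, so that it could hardly be lower in their derivatives. Myl9, a myosin light chain, was at 0.0058 to 0.22 CPM in the derivatives of 2883 and 18.0 CPM in their parental culture. Pmel, a melanosome protein, was at 0.0772 to 0.82 CPM in them and 14.6 CPM in their parental culture. In the other 4 parental libraries Myl9 was at 0.0074 to 0.0828 CPM and Pmel at 0.384 to 0.693 CPM. Both passed the filter of 1 CPM only through the parental library of 2883, and a gene so chosen had to differ, so their p-values are not used. For each of the 3 genes the result rests on the single parental library of line 2883, without which the difference could not be fitted. Without the cytarabine-resistant library of 2883 there were 5 genes, without the methotrexate-resistant library 6.

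The genes in which derivatives of different drugs differed included the drug efflux pump Abcb1a and Slc19a1, the carrier that brings methotrexate into cells. Adding a term per drug to the shared term called 29 genes (0.226%). In 27 of them the methotrexate term lay farthest from the mean of the other drugs' terms, 12 higher and 15 lower. The other drugs did not always agree: Nrp1, 1 of the 27, had terms of -1.54 for methotrexate and -1.17 for vincristine. Slc19a1 fell to 0 reads in the methotrexate-resistant derivative of line 2883, against 31.1 CPM in its parental culture, and was at 17.2 to 82.0 CPM in the other 10 derivatives (adjusted p = 0.00481 in limma). Bcl7a, a subunit of chromatin remodelling complexes, fell to 0.576 CPM in the same derivative, against 60.5 CPM in its parental culture (adjusted p = 0.00099). It was at 51.2 to 125 CPM in the other derivatives apart from those of line 2869, which were at 0.0059 and 0.0058 CPM, against 0.0815 CPM in their own parental culture. Ccnb3, an X-linked B-type cyclin of germ cells, was at 116 CPM in the methotrexate-resistant derivative, against 0 reads in its parental library, and was at 0.0053 to 0.122 CPM in the other 10 derivatives. Ccnb3 is 1 of 6 genes among the 27 that passed the filter of 1 CPM only through that library, and for these the test adds nothing to the level.

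The methotrexate term rests on 1 library, which is assumed to vary like the others. Without it 0 genes were called by the drug terms. Without the etoposide-resistant library of line 2696 there were 44 genes, and without the resistant or the parental library of line 7298, or the parental library of 2869, there were 19 each.

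Abcb1a encodes P-glycoprotein, which pumps etoposide and vincristine out of cells (chromosome 5, 8660077 to 8748576). It was at 3757 and 286 CPM in the etoposide-resistant derivatives of lines 2883 and 2696, and at 5237, 178 and 3909 CPM in the vincristine-resistant derivatives of 2883, 2696 and 2869. Levels in the other 6 derivatives were 0.0071 to 6.61 CPM, and parental levels were 0.0082 CPM in line 2883, 4.24 in 2696, 15.8 in 2869, 0.0075 in 2641 and 16.0 in 7298 (adjusted p = 0.0195 for the drug terms in limma). All 5 derivatives resistant to these drugs lay above every other library. In the etoposide-resistant derivative of 2883 the 13 genes tested from Sri to Dmtf1 were all at least 4-fold higher. In the vincristine-resistant derivative of line 2696 the genes of that stretch other than Abcb1a had log2 ratios of 0.02 to 1.45. In the etoposide-resistant one they were at -0.96 to 0.81, apart from the overlapping Gm42686. Abcb1a and Abcb1b are close copies and may share reads. Lss, a cholesterol synthesis enzyme, was the only other gene named by the drug terms outside methotrexate. It was at 62.6 to 96.2 CPM in the 3 vincristine-resistant derivatives and 133 to 324 CPM in the other derivatives, with 129 CPM in the parental culture of line 2883, 101 in 2696, 107 in 2869, 127 in 2641 and 345 in 7298 (adjusted p = 0.0233).

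**Figure D4:**
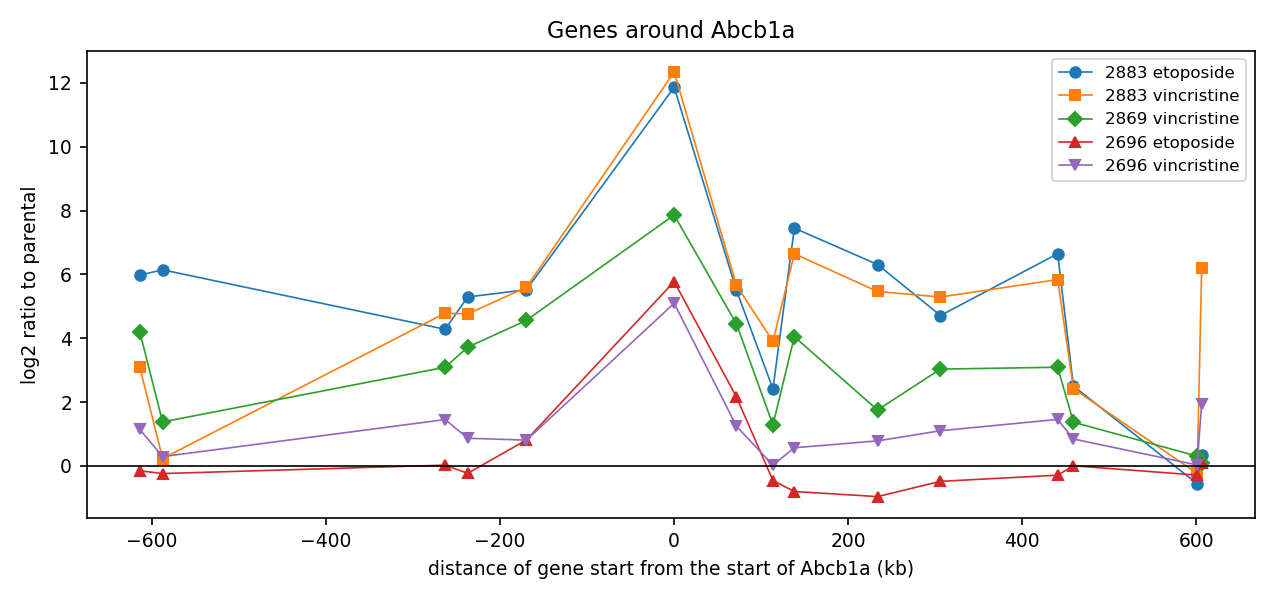
Log2 ratio of CPM + 1 over the own parental culture for the tested genes around Abcb1a, by distance of the gene start in kb, for the 5 derivatives resistant to etoposide or vincristine. Abcb1a stands above its neighbours in all 5 derivatives. Genes on both sides of it are high in 3 derivatives of lines 2883 and 2869. From Sri to Dmtf1, its neighbours are at 0.02 to 1.45 in the vincristine-resistant derivative of line 2696. In the etoposide-resistant one they are at -0.96 to 0.81, apart from the overlapping Gm42686.

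Of 28 known drug resistance genes, 26 were tested, and limma's shared term called 0 of them, with 0 at an unadjusted p under 0.05. Dck had 0 reads in the cytarabine-resistant derivative of 7298, against 103 CPM in its parental culture, and was at 34.9 CPM in that of 2883, against 162 CPM. In that of 2869 it was at 90.3 CPM, against 156 CPM. Nr3c1 was at 18.5 CPM in the prednisone-resistant derivative of 2883, against 327 CPM in its parental culture, and at 0.533 CPM in that of 2641, against 638 CPM. Nt5c2, a nucleotidase that inactivates thiopurines, was nearest to a shared difference, at 0.29 ± 0.13 (log2, SE) and higher in 10 of 11 derivatives (unadjusted p = 0.0527, and 0.08 with log2 depth in the fit).

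Large changes recurred in several lines for few genes, led by Capn5 and Ly6d on the higher side and by Uhrf2 and Fmnl2 on the lower side. A change of at least 4-fold in at least 3 lines was found for 26 genes higher (0.202%) and 48 genes lower (0.374%), and 24 of these 74 had an unadjusted p under 0.05 for the shared term. A line was counted where any of its derivatives reached this size. No gene reached it in 5 lines, and 2 higher and 8 lower genes reached it in 4. Each derivative had 14 to 358 genes at least 4-fold higher and 86 to 316 at least 4-fold lower than its parental culture. Of 2081 genes that changed this much in any derivative, 292 did so in both directions. These counts depend on low values: with a pseudocount of 5 CPM they were 6 higher and 7 lower.

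Capn5, a calcium-dependent protease gene, was 4-fold higher in 1 derivative each of 4 lines. These were the vincristine-resistant ones of 2883, 2696 and 2869 (log2 ratios 2.47, 2.23 and 2.35) and the prednisone-resistant one of 2641 (2.25). Capn5 was at 33.2, 212 and 435 CPM (lowest, median and highest) in resistant libraries. Its parental levels were 68.6 CPM in line 2883, 60.4 in 2696, 84.5 in 2869, 43.6 in 2641 and 21.9 in 7298. Its shared log2 fold change was 1.46 ± 0.43 (SE, unadjusted p = 0.00453, and 0.65 with log2 depth in the fit), and it was lower only in the cytarabine-resistant derivative of 2869 (log2 ratio -0.13). B3gnt6, a glycosyltransferase gene next to Capn5 on chromosome 7, was 4-fold higher in 6 derivatives of 3 lines, and its further neighbour Acer3 had a shared log2 fold change of 0.87 (0.06 with log2 depth in the fit). Ly6d, a surface protein of early lymphocytes, was 4-fold higher in 1 derivative each of 4 lines, while the etoposide- and vincristine-resistant derivatives of 2883 had log2 ratios of -1.62 and -2.61. Fosb was 4-fold higher in 7 derivatives of 3 lines: it had 8 to 1417 reads in the derivatives of the Mcm2cre/cre lines, against 0 to 3 reads in their parental libraries. In line 7298 it was at 12.1 CPM in the resistant and 13.4 CPM in the parental library. Meis2, a homeobox gene, was 4-fold higher in 6 derivatives of 3 lines, and Hpgds, a prostaglandin D synthase, in 5 derivatives of 3 lines.

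Among the lower genes, some had no reads in several derivatives and were present in others. Uhrf2, a ubiquitin ligase that binds modified cytosine, had 0 reads in 7 derivatives of the Mcm2cre/cre lines, whose parental libraries held 104 to 328 reads. In the other 3 of these derivatives, the cytarabine- and vincristine-resistant ones of 2883 and the vincristine-resistant one of 2869, it had 157, 372 and 591 reads, and in line 7298 it had 0 reads in both libraries. The actin regulator Fmnl2 was 4-fold lower in 7 derivatives of 4 lines, with 0 or 1 read in 3 of them, and its shared log2 fold change was -2.93 ± 0.81 (SE, unadjusted p = 0.00317). Id3, an inhibitor of E proteins in T cell development, was 4-fold lower in 5 derivatives of 4 lines, with 0.82, 4.05 and 47.2 CPM (lowest, median and highest) in resistant libraries. Parental values were 14.7 CPM in line 2883, 53.3 in 2696, 25.3 in 2869, 8.89 in 2641 and 55.5 in 7298. The groups overlapped widely for Id3.

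Xist, the RNA that coats the inactive X chromosome, was at 1 read in the vincristine-resistant derivative of line 2869 against 40431 in its parental library, and at 25 reads in that of 2696 against 47417. It was at 5 reads in the methotrexate-resistant derivative of 2883 against 27116, and at 3 reads in the prednisone-resistant derivative of 2641 against 2675. The 6 other derivatives of the Mcm2cre/cre lines had 19589 to 85542 reads. The median log2 ratio of X-linked genes, minus that of all genes, was -0.05 in the methotrexate-resistant derivative of 2883. It was -0.16 and -0.17 in the vincristine-resistant ones of 2696 and 2869, and -0.10 in the prednisone-resistant one of 2641. In the other derivatives it was -0.07 to 0.04.

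How far the derivatives resembled each other was measured across all genes for the 43 pairs from different lines, which share no library. Pearson's r of their log2 ratios was between -0.20 and 0.35, with a median of 0.07, and 36 of 43 pairs were positive. The 8 pairs selected with the same drug had a median of 0.09 and the 35 pairs with different drugs a median of 0.07. These correlations are across genes, which are not independent, and all derivatives have deeper libraries than all parental cultures. Cell line took 65.9% of all variation summed over genes. Within lines, the shared term took 9.36% with 9.09% of the degrees of freedom, the drug terms took 45.5% with 36.4%, and 45.1% was left with 54.5%.

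The median change of the genes of single chromosomes stood apart from that of all genes in most derivatives. The median log2 ratio of the genes of each chromosome was set against that of all 9471 genes with a mean of at least 10 CPM, and a limit of 0.25, chosen after the values were seen, was used for description. Of 220 pairs of chromosome and derivative, 10 lay above and 4 below this limit, in 9 of 11 derivatives, and the other pairs lay between -0.23 and 0.18. On chromosome 8, 475 of 521 genes were lower in the vincristine-resistant derivative of line 2883, with a median of -0.69. On chromosome 11, 701 of 813 genes were higher in the vincristine-resistant derivative of 2696 (median 0.55) and 655 of 813 in that of 2869 (0.42), while that of 2883 was at 0.04. The derivative of 2869 also had medians of 0.41 on chromosome 5, 0.37 on 9 and 0.41 on 15. Chromosome 16 was at 0.41 in both derivatives of line 2696, which share a parental library, and at 0.29 in that of line 7298. Chromosome 13 was at -0.41, -0.36 and -0.27 in the cytarabine-, prednisone- and etoposide-resistant derivatives of 2883, which also share one. In the etoposide-resistant one, 232 genes of chromosome 13 were lower and 129 higher. Position within a chromosome was not used, so a whole chromosome and a part of it cannot be told apart. DNA copy number was not measured.

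**Figure D5:**
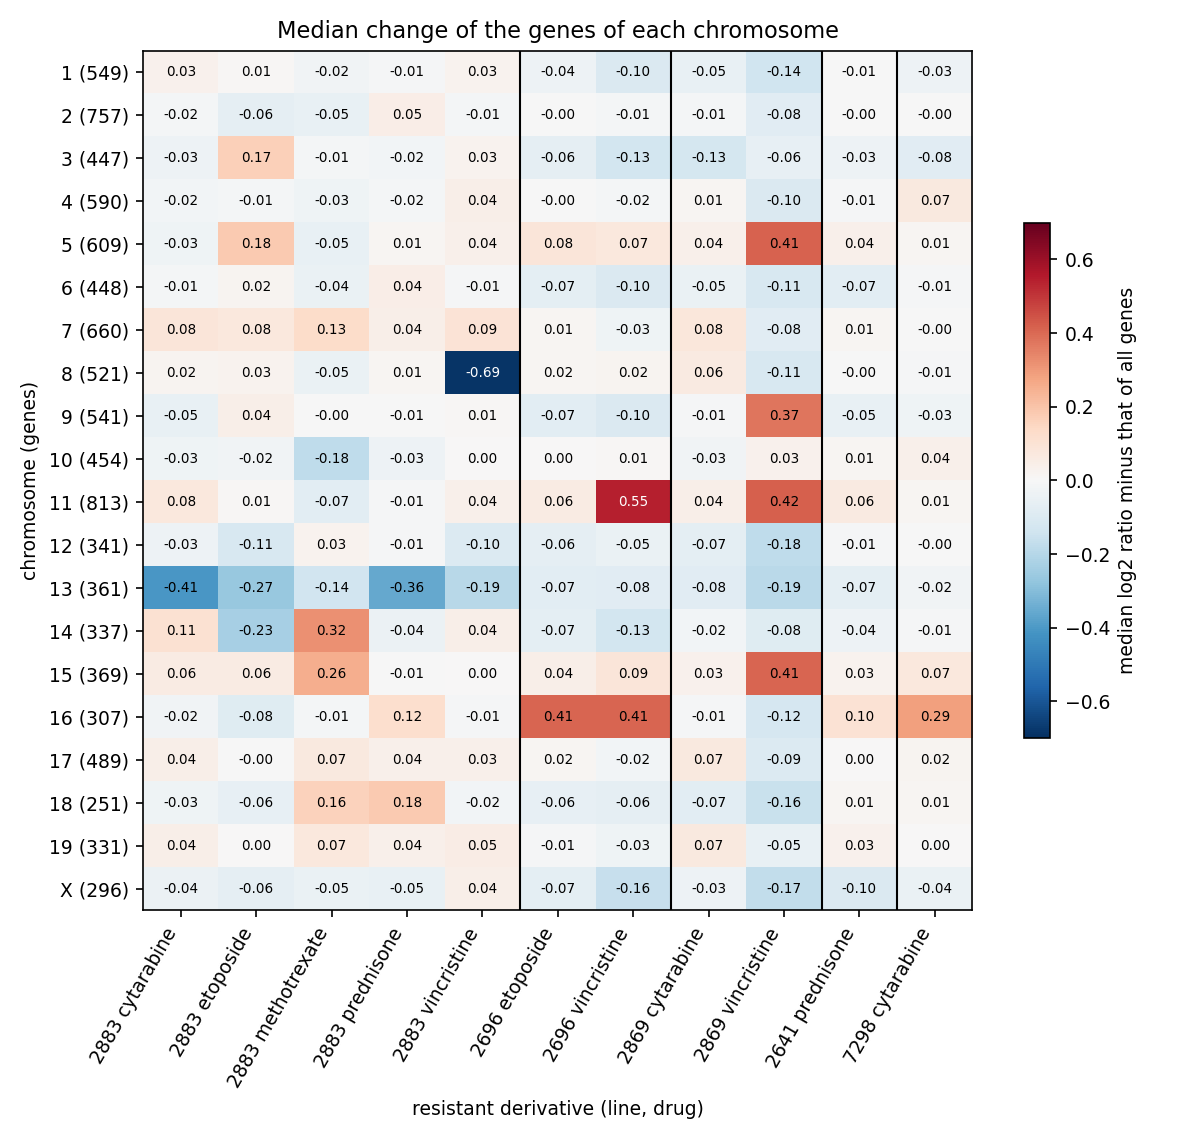
Heat map of the median log2 ratio of CPM + 1 over the genes of each chromosome (rows, with the number of genes) minus the median of all genes, in each resistant derivative (columns, grouped by line). Most cells lie near 0, and single cells stand out, such as chromosome 8 at -0.69 in the vincristine-resistant derivative of line 2883 and chromosome 11 at 0.55 and 0.42 in those of lines 2696 and 2869.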

How the data were processed

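RNA from 16 cultures was sequenced, and the authors deposited FPKM values for 13474 genes. Per the submitters' processing notes, cutadapt, STAR and Partek were used with the mm10 build, without versions. The sources used here do not name the counting method, strand or annotation. In every row of the deposited FPKM the gene length is the whole span with introns, so FPKM was multiplied by it to give CPM, and a deposited constant of 0.1 read gave the depth of each library. Only 70.5% to 75.7% of the values of a library that lie between 0.5 and 200 reads were whole within 0.05, too few for a test on counts. A CPM of about 0.01 or less therefore means 0 reads.

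R 4.3.3 with limma 3.58.1 was used for all tests of genes (functions lmFit and eBayes, the second with a trend). The values were log2(CPM + 1), which understates changes of low genes, for 12843 genes with a mean of at least 1 CPM. Library measures were compared by the exact permutation test within lines. The shared model had 1 term per line and 1 for resistance (10 residual degrees of freedom). Terms per drug (6 residual degrees of freedom) and an interaction with line 2883 (9) were tested over it. P-values of genes are two-sided, adjusted by the Benjamini-Hochberg method over all genes at 0.05. The line is the block, since the labels name it for every culture. The scripts were tested on simulated data.

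Named were the 12 genes per direction with the smallest shared p and the same sign of the line mean in 5 lines, up to 3 per gene list, the 8 per direction with a change of at least 4-fold in the most lines, up to 8 for the drug terms, up to 5 for line 2883, and known resistance genes. Genes were left out of the text where they are predicted models or T cell receptor segments. Part of the genes so chosen is not reported here. Genes and lists were chosen with earlier results of these data known. Alternatives covered the scale, pseudocount, filter, scaling, block, depth, variance estimate and each library or line left out.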

Additional observations from a re-analysis of the deposited data

Results flagged for a closer look

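The level of Ptpn23 in the parental library of line 2869, 28.8 CPM, lay far from the other 4 parental libraries (46.5 to 51.7 CPM). Chance flags about 1 in 20 groups in this way.

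The log2 change in line 2883, minus that in the other lines, was -5.05 for Bex1 (adjusted p = 0.00231 in limma), -4.19 for Myl9 and -3.68 for Pmel. Each was low in 5 of 5 derivatives of line 2883 and present in their shared parental library. Myl9 and Pmel, at 0.0074 to 0.0828 and 0.384 to 0.693 CPM in the other 4 parental libraries, passed the filter of 1 CPM only through that library, so a negative difference was fixed by the choice and their p-values are not used.

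The terms per drug called 29 genes. In 27 of them the methotrexate term lay farthest from the mean of the other drugs' terms. That term rests on the methotrexate-resistant derivative of line 2883. It did not always stand apart from every other drug: Nrp1, among the 27, had terms of -1.54 for methotrexate and -1.17 for vincristine.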

How the results depend on the processing

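The shared effect called 0 genes under all 30 alternatives in limma. Genes at an unadjusted p under 0.05 numbered 1086, against 1983 with 1 value per line, 1682 without line 2883 and 600 to 1417 with 1 library left out. Without the replicate block (no line term) they numbered 805, with 0 genes called; the line block follows from the labels. With log2 depth as a covariate they numbered 813, and the medians of 22 of 49 lists changed sign, among them ribosomal proteins 0.37, respiratory chain 0.11, proteasome 0.13, Wnt pathway -0.31 and chromatin modifiers -0.35. For the 24 named genes, 713 values under alternatives kept their sign, and 1, that of Ergic1, reversed to -0.15 with depth as a covariate. The causes were not tested.

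The drug terms called 29 genes, 5 on the FPKM scale (9309 genes tested), 17 with depth as a covariate and 0 to 44 with 1 library left out. The test of line 2883 called 3 genes, 0 with a pseudocount of 0.1 CPM, 17 with no filter, 0 with a mean CPM of at least 10 (9487 genes tested, from which Myl9 and Pmel are left out) and 2 to 6 with 1 library left out, except its own parental library, without which it could not be fitted. Recurrent changes of at least 4-fold numbered 26 higher and 48 lower, against 6 and 7 with a pseudocount of 5 CPM, 3 and 8 at 8-fold, and 2 and 7 on the FPKM scale. The median cross-line correlation was 0.07, and 0.07 to 0.10 under its alternatives. Depth limits low transcripts: 0 reads allow up to 3, and intervals were not computed for normalised values.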
